A study of Mus musculus with 15 samples.

Results

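Growth signaling through PI3K, mTOR and FOXO was followed in mouse oocytes with 9 genes: Pik3ca, Pdpk1, Akt1, Tsc1, Tsc2, Mtor, Rptor, Foxo3 and Foxo1. The genes were taken as a list of symbols, matched to the Ensembl identifiers of the count files through the GENCODE vM21 annotation of GRCm38. All 9 were found among 55401 identifiers, and all 9 were among the 21009 genes that passed the filter on low counts. Each library held 6 pooled oocytes of Kunming mice, an outbred stock, and 15 libraries formed 5 groups of 3. IVV oocytes were germinal vesicle oocytes grown in vivo and punctured from antral follicles. IVG oocytes came from preantral follicles grown in vitro in medium without NT-4, a neurotrophin that signals through the receptor TRKB, and IVG-NT oocytes from follicles given NT-4. Both kinds of culture were sampled at day 6 and at day 10. All in vitro groups shared the culture medium, which contained FSH and insulin, and the follicles were dissected from mice 12 to 14 days old. The series gives that age for its mice without separating the groups, so the age of the mice that gave the IVV oocytes is not stated apart.

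Class I PI3K makes a membrane lipid that recruits the kinases PDK1, encoded by Pdpk1, and AKT. Active AKT silences the complex of TSC1 and TSC2, which otherwise keeps the small GTPase RHEB from switching on mTORC1, the growth kinase complex built on mTOR and its scaffold raptor (Rptor). AKT also phosphorylates FOXO transcription factors and moves them out of the nucleus. In mouse oocytes FOXO3 holds primordial follicles dormant, and loss of Tsc1 in the oocyte activates the whole pool. RNA levels do not show the phosphorylation on which this pathway runs.

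Depth and the share of rRNA differed between libraries of the same group. Total counts were 19.0 to 55.6 M in 13 libraries, but 5.95 and 7.13 M in replicates 1 and 2 of IVG-NT day 6. Of all counts, 12.5% to 37.9% fell on an rRNA gene (CT010467.1) in 9 libraries, here called rRNA-rich, and 0.187% to 0.714% in the other 6, called rRNA-poor. IVV had 1 rRNA-rich library (replicate 3) and 2 rRNA-poor libraries, whereas each in vitro group had 2 rRNA-rich libraries (replicates 1 and 2) and 1 rRNA-poor library (replicate 3). All 10 oocyte markers, such as Zp3 and Gdf9, had counts in every library, with a summed level of 11034 to 20519 CPM, the counts of a gene scaled to the normalized size of its library. Summed granulosa cell markers lay between 48.6 and 301 CPM. In the rRNA-rich libraries of IVG-NT day 6 these markers were at 0 in 7 of 10 genes. There, theca and stroma markers reached 65.6 CPM in replicate 2, all from Cyp11a1, and macrophage markers 53.1 CPM in replicate 1, mostly Csf1r. The part of such cells in the values below was not tested. Every value is a share of the RNA of 6 pooled oocytes, so fewer oocytes expressing a gene and less of its RNA per oocyte cannot be told apart.

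Compared per kilobase of exon, the FOXO factors were the most abundant of the 9 genes in every library and Rptor the least. The median over 15 libraries was 107 CPM per kb for Foxo3 and 44.4 for Foxo1, against 8.43 for Akt1 and Tsc1 each, 5.17 for Tsc2, 4.72 for Pdpk1, 4.47 for Mtor, 2.47 for Pik3ca and 0.692 for Rptor. The 6 genes between FOXO factors and Rptor exchanged ranks between libraries (ranks 3 to 8), so their order was within the spread. Foxo3 ranked above Foxo1 in 9 libraries and below it in the other 6.

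The catalytic subunit Pik3ca (ENSMUSG00000027665, chr3:32397671-32468486, plus strand, GRCm38) differed more between libraries of a group than between groups. In IVV it measured 6.89, 71.7 and 7.91 CPM in replicates 2, 3 and 4. At day 10 replicates 1, 2 and 3 held 46.4, 53.1 and 8.61 CPM in IVG and 96.1, 44.6 and 6.1 CPM in IVG-NT. At day 6 they held 63.3, 37.1 and 8.78 CPM in IVG and 22.4, 8.88 and 8.56 CPM in IVG-NT. Every rRNA-rich library lay above every rRNA-poor one, by as little as 8.88 against 8.78 CPM, and all groups overlapped.

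Pdpk1 (ENSMUSG00000024122, chr17:24073680-24150924, minus strand), the kinase that activates AKT, showed the clearest differences between groups. IVV libraries held 51.6, 47 and 40.5 CPM in replicates 2, 3 and 4. Day 10 libraries, in the order of replicates 1 to 3, held 271, 231 and 45.2 CPM in IVG and 186, 203 and 46.9 CPM in IVG-NT. Day 6 libraries held 316, 190 and 70.3 CPM in IVG and 31.8, 33.9 and 50.8 CPM in IVG-NT. High values were thus found in 6 libraries, the rRNA-rich ones of 3 in vitro groups, while the rRNA-rich library of IVV and both of IVG-NT day 6 stood with the rRNA-poor libraries.

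Akt1 (ENSMUSG00000001729, chr12:112653821-112674884, minus strand), the kinase downstream of PDK1, was among the least variable of the 9, with a mean of 44.8 ± 21.8 CPM in IVV (SD, n = 3 in each group). The means at day 10 were 38.3 ± 8.56 CPM for IVG and 39.6 ± 14.7 for IVG-NT, and those at day 6 were 40.8 ± 21.9 and 35 ± 16.8 CPM. Single libraries lay between 15.7 and 69.8 CPM, without a separation of either the groups or the kinds of library.

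Tsc1 and Tsc2, which form the brake on mTORC1, were both higher in the rRNA-rich libraries of the in vitro groups, but in IVV only Tsc1 was. Tsc1 (ENSMUSG00000026812, chr2:28641228-28691167, plus strand) held 19.1, 116 and 13.9 CPM in IVV replicates 2, 3 and 4. In replicates 1, 2 and 3 it held 201, 179 and 26.9 CPM in IVG day 10 and 99.8, 215 and 16.3 CPM in IVG-NT day 10. At day 6 it held 187, 204 and 23.6 CPM in IVG and 79.5, 345 and 13.8 CPM in IVG-NT. All 9 rRNA-rich libraries, from 79.5 CPM upward, lay above all 6 rRNA-poor ones, which reached 26.9 CPM. Tsc2 (ENSMUSG00000002496, chr17:24595816-24632630, minus strand) held 58.7, 38 and 49.5 CPM in IVV. It held 104, 104 and 28.7 CPM in IVG day 10 and 49.8, 86.9 and 6.87 CPM in IVG-NT day 10. At day 6 the values were 106, 65.4 and 14.3 CPM in IVG and 21.3, 258 and 10.2 CPM in IVG-NT. In IVV the rRNA-rich library had the lowest Tsc2 value, whereas in the 4 in vitro groups both rRNA-rich libraries had more than the rRNA-poor one. Replicate 2 of IVG-NT day 6 held the highest value of both genes. Exons of Tsc2 overlap those of Pkd1 on the opposite strand, and the protocol does not mark strand, so reads in the shared part cannot be assigned.

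Mtor (ENSMUSG00000028991, chr4:148448611-148557683, plus strand), the kinase of mTORC1 and mTORC2, held 22.3, 131 and 29.7 CPM in IVV. At day 10 it held 122, 100 and 45.2 CPM in IVG and 80.8, 93.3 and 26 CPM in IVG-NT. At day 6 it held 160, 104 and 41.2 CPM in IVG and 37.6, 1.04 and 19 CPM in IVG-NT. All 3 IVG-NT day 6 libraries were below all 3 IVG day 6 libraries, and the value of 1.04 CPM rests on 6 counts. Rptor (ENSMUSG00000025583, chr11:119602905-119899576, plus strand) was low throughout, from 0.87 CPM, which is 5 counts in that same library, to 36.4 CPM in IVG day 6. Its group means were 13 ± 9.49 CPM in IVV, 15.8 ± 5.9 and 20 ± 10.5 CPM at day 10 for IVG and IVG-NT, and 26 ± 15.2 and 5.77 ± 4.36 CPM at day 6 for IVG and IVG-NT (SD, n = 3 each). Among the 9 genes, the one nearest to Mtor across the 15 libraries was Rptor, with a root mean square difference of 0.588 between their centred log2 CPM.

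The FOXO factors, the transcription factors that AKT excludes from the nucleus, differed from each other in how they varied. Foxo3 (ENSMUSG00000048756, chr10:42181841-42276755, minus strand) held 181, 808 and 173 CPM in IVV. At day 10 it held 1564, 1210 and 171 CPM in IVG and 1314, 1092 and 133 CPM in IVG-NT. At day 6 it held 1547, 1594 and 163 CPM in IVG and 1042, 491 and 113 CPM in IVG-NT. Foxo3 was thus at 113 to 181 CPM in the 6 rRNA-poor libraries whatever the group, and at 491 to 1594 CPM in the 9 rRNA-rich ones. Foxo1 (ENSMUSG00000044167, chr3:52268336-52353221, plus strand) held 355, 571 and 370 CPM in IVV, 385, 395 and 399 CPM in IVG day 10 and 618, 433 and 268 CPM in IVG-NT day 10. It held 563, 617 and 293 CPM in IVG day 6 and 357, 365 and 175 CPM in IVG-NT day 6. Between its highest and lowest library Foxo1 varied 3.54-fold, against 14.1-fold for Foxo3 and 153-fold for Mtor.

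**Figure D1:**
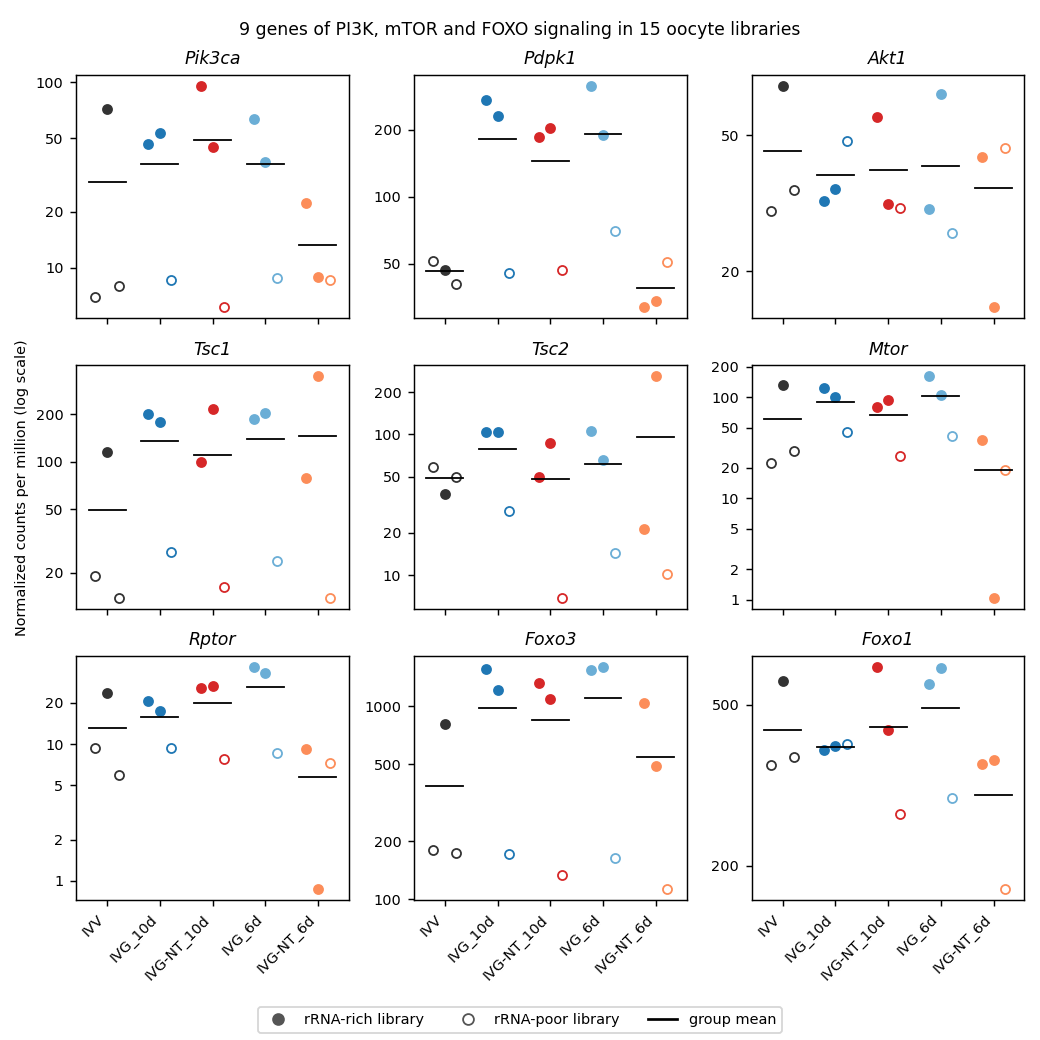
Level in CPM (log scale, a different range in each panel) of the 9 genes in 15 libraries, in 5 groups of 3. Filled points are rRNA-rich and open points rRNA-poor libraries, and bars are group means. For Pik3ca, Tsc1 and Foxo3 every filled point lies above every open one, whereas Pdpk1 is high only in the filled points of IVG_10d, IVG-NT_10d and IVG_6d.

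The kind of library moved with the level of these genes. Values within a kind are therefore given for the 2 of the 9 genes with the smallest P in each comparison of 2 groups below. Mean levels in the 9 rRNA-rich libraries exceeded those in the 6 rRNA-poor ones 9.54-fold for Tsc1, 7.61-fold for Foxo3, 6.31-fold for Pik3ca, 3.3-fold for Pdpk1 and Tsc2, 3.02-fold for Mtor, 2.68-fold for Rptor, 1.54-fold for Foxo1 and 1.18-fold for Akt1. All rRNA-rich libraries lay above all rRNA-poor ones for 3 of the 9 genes, against 2.88% of all genes tested. Without the 2 libraries under 10 M counts this held for 5 of 9, Mtor and Rptor being added, against 11.1% of all genes tested. None of the 9 was lower in every rRNA-rich library, as 10.3% of all genes were. These shares are given as a description, since the kind was defined from the same libraries. Within groups, Foxo3, Tsc1, Pik3ca and Mtor were higher in the rRNA-rich libraries in all 5 groups, although for Mtor in IVG-NT day 6 by only 0.03 on the log2 scale. Foxo1, Tsc2, Pdpk1 and Rptor were higher in 4 groups, although for Pdpk1 in IVV again by only 0.03, and Akt1 in 3.

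**Figure D2:**
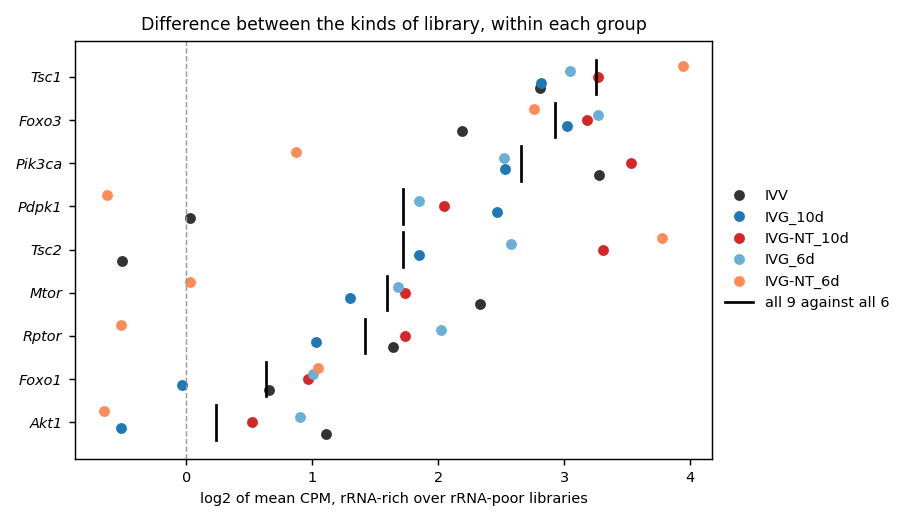
Difference between rRNA-rich and rRNA-poor libraries as the log2 ratio of their mean CPM, for each of the 9 genes. Points are the 5 groups, each comparing 2 libraries of one kind with 1 of the other, and black bars compare all 9 with all 6 libraries. Tsc1 and Foxo3 have every group above 2 on this scale, whereas for Akt1 the groups fall on both sides of 0.

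The balance between the FOXO factors turned with the kind of library. Per kilobase, Foxo3 exceeded Foxo1 in all 9 rRNA-rich libraries, by 1.54-fold to 4.65-fold, and in the 6 rRNA-poor libraries it was 0.49 to 0.743 of Foxo1. Within the rRNA-rich libraries the ratio was 1.62 in IVV. At day 10 it was 4.65 and 3.5 without NT-4 and 2.43 and 2.89 with it, and at day 6 it was 3.14 and 2.96 without and 3.34 and 1.54 with it. The ratio of Pdpk1 to Akt1 behaved otherwise. It was 0.252 in the rRNA-rich library of IVV and 0.276 and 0.812 in those of IVG-NT day 6, but 1.08 to 3.89 in the 6 rRNA-rich libraries of the other groups. In rRNA-poor libraries it lay between 0.353 and 1.02. Mtor exceeded Rptor per kilobase in all 15 libraries, from 1.6-fold to 7.8-fold. Tsc1 exceeded Tsc2 in 12 of 15 libraries, the exceptions being the rRNA-poor libraries of IVV and of IVG day 10.

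**Figure D3:**
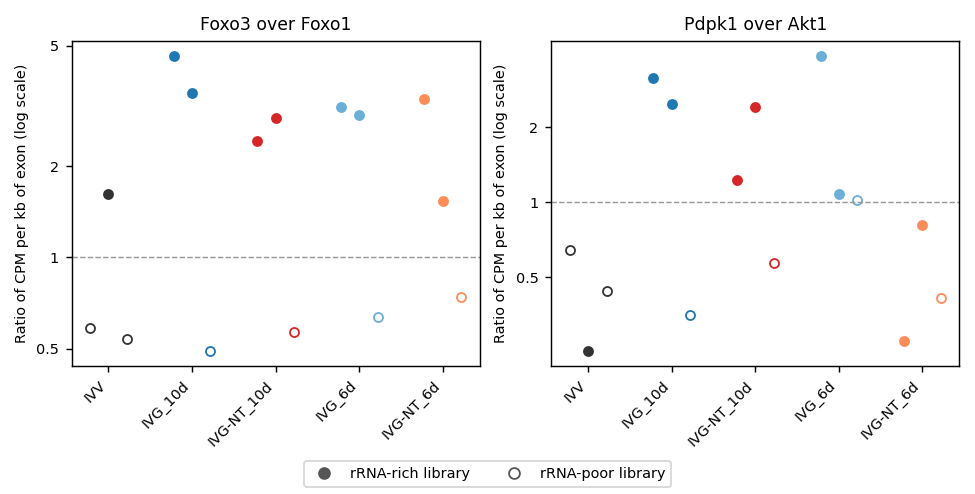
Ratio of CPM per kilobase of exon (log scale) in each library, for Foxo3 over Foxo1 (left) and Pdpk1 over Akt1 (right), with filled points for rRNA-rich and open points for rRNA-poor libraries and a dashed line at equal levels. Foxo3 exceeds Foxo1 in all filled points and in no open one, whereas Pdpk1 over Akt1 stays below 1 in the filled points of IVV and IVG-NT_6d.

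The genes whose profile over the 15 libraries was nearest to that of Foxo3, among all 21009 tested, were Prep, Fbxo42 and Pom121, with root mean square differences of 0.303, 0.319 and 0.323 in centred log2 CPM (median of all genes 2.52). These genes also split by the kind of library, for instance Prep at 115 to 362 CPM in rRNA-rich and 37.1 to 61.6 CPM in rRNA-poor libraries. Among the 9 genes, Pik3ca was nearest to Foxo3 (0.641) and Akt1 nearest to Foxo1 (0.568).

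Growth in vitro to day 10 was compared with growth in vivo to see how culture changes the oocyte. Pdpk1 was the only one of the 9 genes called higher in IVG day 10 oocytes, although 7 of the 9 fold changes were positive. It averaged 182 ± 120 CPM against 46.4 ± 5.6 in IVV (SD, n = 3 each), a log2 fold change of 1.98 ± 0.80 (SE, edgeR quasi-likelihood test, adjusted p = 1). A gene was called where its log2 fold change exceeded 1 in size and its P before adjustment was under 0.05, the rule of the study, which called 2.76% of all genes in this comparison. The second smallest P belonged to Foxo3, with 1.34 ± 1.05 (SE, adjusted p = 1). Foxo3 measured 1387 against 808 CPM in rRNA-rich and 171 against 177 CPM in rRNA-poor libraries, and with the kind of library in the fit its log2 fold change was 0.24. Leaving out IVV replicate 3 raised it to 2.41, and leaving out IVG replicate 1 lowered it to 0.81. The median of the 9 log2 fold changes was 0.55, against -0.20 over all genes. It was 1.73 without IVV replicate 3 and 0.16 to 0.87 without any other library of these groups, 0.03 with the kind of library in the fit and -0.22 in rRNA-rich libraries alone. The groups overlapped for all 9, where 11.9% of all genes showed no overlap (Pdpk1, 2-sided exact permutation test, p = 0.3). Within the rRNA-rich libraries Pdpk1 measured 251 CPM in IVG (mean of 2) against 47 in the 1 IVV library, and within the rRNA-poor ones 45.2 in the 1 IVG library against 46 in IVV (mean of 2). With the kind of library in the fit the log2 fold change was 1.32 and no longer called. The call was also lost without IVV replicate 3 or 4 (1.93 and 1.89) and without IVG day 10 replicate 1 or 2 (1.54 and 1.77).

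With NT-4 in the medium, day 10 oocytes were set against IVV to see whether the same genes depart from growth in vivo. None of the 9 was called by edgeR, none had an unadjusted P under 0.05, and DESeq2 called none, with 3.29% of all genes called by edgeR. The groups overlapped for all 9, where 11.6% of all genes showed no overlap. Pdpk1 averaged 145 ± 85.7 CPM against 46.4 ± 5.6 in IVV (log2 fold change 1.65 ± 0.79 SE, adjusted p = 1), followed by Foxo3 with 846 ± 628 against 387 ± 364 CPM (1.13 ± 1.05 SE, adjusted p = 1). Foxo3 measured 1203 against 808 CPM in rRNA-rich and 133 against 177 CPM in rRNA-poor libraries, and with the kind of library in the fit its log2 fold change was -0.02. The median log2 fold change of the 9 was 0.62, against -0.19 over all genes. It was 1.32 without IVV replicate 3 and -0.07 without replicate 1 of IVG-NT, and -0.02 with the kind of library in the fit. Again Pdpk1 separated by kind, with 195 against 47 CPM in rRNA-rich and 46.9 against 46 CPM in rRNA-poor libraries, and in the rRNA-rich libraries alone it passed the rule (2.08). It also passed without replicate 3 of IVG-NT day 10 (2.07), when no other groups were fitted (1.61) and without the 2 shallow libraries (1.59). Both comparisons with IVV share its 3 libraries.

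NT-4 at day 10 was tested by setting IVG-NT against IVG, and no change in these genes was found. None was called by edgeR or DESeq2 and none had an unadjusted P under 0.05, with 1.24% of all genes called by edgeR. The groups overlapped for all 9, where 3.59% of all genes showed no overlap. The smallest P was that of Tsc2, at 47.9 ± 40.1 CPM with NT-4 and 78.7 ± 43.3 without (log2 fold change -0.72 ± 1.11 SE, adjusted p = 1), and next by P came Pdpk1 (-0.33 ± 0.77 SE, adjusted p = 1). Tsc2 measured 68.3 with NT-4 against 104 CPM in rRNA-rich libraries (means of 2) and 6.87 against 28.7 CPM in the single rRNA-poor ones, and Pdpk1 measured 195 against 251 and 46.9 against 45.2 CPM. The SE of the 9 genes was 0.55 to 1.19, so changes of that size, and larger ones, could have been missed. The median log2 fold change was -0.21, against 0.01 over all genes, and ranged from -0.71 without replicate 3 of IVG to 0.21 without replicate 3 of IVG-NT.

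At day 6 NT-4 was tested in the same way. Pdpk1 and Mtor were called lower in IVG-NT oocytes, 2 of 9 genes where 11.6% of all genes were called. With so few members this count is not read as particular to these genes. Pdpk1 averaged 38.9 ± 10.4 CPM with NT-4 against 192 ± 123 without (log2 fold change -2.30 ± 0.81 SE, adjusted p = 0.381), and Mtor 19.2 ± 18.3 against 102 ± 59.2 CPM (-2.41 ± 1.06 SE, adjusted p = 0.407). For both, every IVG-NT library lay below every IVG library, as for 8.45% of all genes in either direction, and the 2-sided exact permutation test gave p = 0.1, the smallest that 3 against 3 libraries allow. Rptor, the partner of Mtor, had a log2 fold change of -2.17 ± 1.08 (SE, adjusted p = 0.445), and 7 of the 9 fold changes were negative, with a median of -1 against -0.27 over all genes. With DESeq2 size factors the median was -0.42, against 0.00 over all genes, and without single libraries it lay between -1.83 and -0.53. In the rRNA-rich libraries Pdpk1 measured 32.9 with NT-4 against 253 CPM without, Mtor 19.3 against 132 and Rptor 5.04 against 34.7 (means of 2), and in the single rRNA-poor libraries Pdpk1 measured 50.8 against 70.3, Mtor 19 against 41.2 and Rptor 7.22 against 8.58 CPM. The rRNA-rich libraries with NT-4 are the 2 shallow ones, and without them only 1 library remained in that group. The log2 fold changes were then -1.82 for Pdpk1 and -2.32 for Mtor, and no member was called. The Mtor call was lost under DESeq2 and with its size factors (-1.90 in both), when no other groups were fitted (-2.29), in the rRNA-rich libraries alone (-2.87), without replicate 2 or 3 of IVG-NT (-1.81 and -2.41) and without replicate 1 or 2 of IVG (-1.93 and -2.36). The Pdpk1 call was lost without IVG replicate 1 (-1.75). Rptor passed the rule without replicate 1 of IVG-NT (-2.57) or replicate 3 of IVG (-2.59). Foxo3 passed in the rRNA-rich libraries alone (-1.12), so 2 members were called there too, with Foxo3 in place of Mtor.

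The effect of NT-4 was not shown to differ between day 10 and day 6 for any of the 9 genes. The interaction of NT-4 and day reached a P under 0.05 for none of them in edgeR or DESeq2, against 6.37% of all genes in edgeR. Pdpk1 came nearest, with a difference of 1.98 ± 1.10 on the log2 scale (SE, adjusted p = 0.854), followed by Rptor with 2.51 ± 1.49 (SE, adjusted p = 0.881). In the rRNA-rich libraries alone 2 members passed, Pdpk1 (2.66) and Foxo1 (1.23), and this comparison again rests on the shallow libraries. Pdpk1 also passed without replicate 3 of IVG-NT day 10 (2.40) and without replicate 3 of IVG day 6 (2.38).

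Time in culture was examined by setting day 10 against day 6. In medium without NT-4 none of the 9 was called by edgeR or DESeq2 and none had an unadjusted P under 0.05, with 2.90% of all genes called by edgeR. The groups overlapped for all 9, where 7.42% of all genes showed no overlap. The smallest P values were those of Rptor, at 15.8 ± 5.9 against 26 ± 15.2 CPM (log2 fold change -0.72 ± 1.04 SE, adjusted p = 1), and Foxo1, at 393 ± 7.37 against 491 ± 174 CPM (-0.32 ± 0.56 SE, adjusted p = 1). Rptor measured 19.1 against 34.7 CPM in rRNA-rich libraries (means of 2) and 9.31 against 8.58 CPM in the single rRNA-poor ones, and Foxo1 measured 390 against 590 and 399 against 293 CPM. The median log2 fold change was -0.09, against 0.05 over all genes, and ranged from -0.52 without replicate 3 of IVG day 6 to 0.34 without replicate 3 of IVG day 10. With NT-4, Pdpk1 was higher at day 10, at 145 ± 85.7 against 38.9 ± 10.4 CPM (1.90 ± 0.79 SE, adjusted p = 0.359), the 1 member called, where 12.7% of all genes were. Its groups overlapped (2-sided exact permutation test, p = 0.2), as did those of the other members, where 11.0% of all genes showed no overlap. Mtor had a log2 fold change of 1.80 ± 1.04 (SE, adjusted p = 0.474), and the median of the 9 was 0.63, against 0.40 over all genes. That median was 1.70 without both shallow libraries and 0.20 without replicate 1 of IVG-NT day 10, and with DESeq2 size factors it was 0.00, against 0.04 over all genes. In rRNA-rich libraries Pdpk1 stood at 195 against 32.9 CPM (means of 2) and in the single rRNA-poor ones at 46.9 against 50.8 CPM. Mtor stood at 87 against 19.3 CPM in rRNA-rich and at 26 against 19 CPM in rRNA-poor libraries. The Pdpk1 call was lost under DESeq2 (1.37), with DESeq2 size factors in the edgeR fit (1.37), without replicate 1 or 2 of IVG-NT day 10 (1.62 and 1.53), without replicate 1 or 2 of IVG-NT day 6 (1.70 and 1.73), when no other groups were fitted (1.82), and without both shallow libraries (1.40). Mtor passed without replicate 1 of IVG-NT day 6 (2.62).

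Day 6 oocytes were also set against IVV. In IVG day 6, Pdpk1 was the 1 member called, higher at 192 ± 123 against 46.4 ± 5.6 CPM (log2 fold change 2.05 ± 0.80 SE, adjusted p = 1), where 4.59% of all genes were called. All 3 IVG day 6 libraries lay above all 3 IVV libraries, as for 11.7% of all genes in either direction (2-sided exact permutation p = 0.1). Foxo3 followed with 1.51 ± 1.06 (SE, adjusted p = 1), and measured 1570 against 808 CPM in rRNA-rich and 163 against 177 CPM in rRNA-poor libraries. With the kind of library in the fit its log2 fold change was 0.34. The median of the 9 was 0.74, against -0.22 over all genes. It was 1.91 without IVV replicate 3, 0.26 without IVG replicate 1 and 0.34 with the kind of library in the fit. Pdpk1 measured 253 against 47 CPM in rRNA-rich libraries and 70.3 against 46 CPM in rRNA-poor ones, and it still passed the rule with the kind of library in the fit (1.45). The call was lost without IVV replicate 4 (1.96) or IVG day 6 replicate 1 (1.49). Tsc1 passed without IVV replicate 3, at a log2 fold change of 3. In IVG-NT day 6 none of the 9 was called against IVV by edgeR or DESeq2 and none had an unadjusted P under 0.05, with 10.4% of all genes called by edgeR. The groups overlapped for all 9, where 13.8% of all genes showed no overlap. The smallest P values were those of Mtor (-1.67 ± 1.04 SE, adjusted p = 0.543) and Tsc1 (1.56 ± 1.22 SE, adjusted p = 0.62), and the median of the 9 was -0.36, against -0.55 over all genes. That median was 0.11 without IVV replicate 3 and -1.60 without both shallow libraries. Mtor measured 19.3 against 131 CPM in rRNA-rich and 19 against 26 CPM in rRNA-poor libraries, and Tsc1 measured 212 against 116 and 13.8 against 16.5 CPM. Mtor passed without replicate 1 of IVG-NT day 6 (-2.53), and Tsc1 without IVV replicate 3 (3.11). The positive fold change of Tsc1 rests on replicate 2 of IVG-NT day 6, since without that library it was -0.09.

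**Figure D4:**
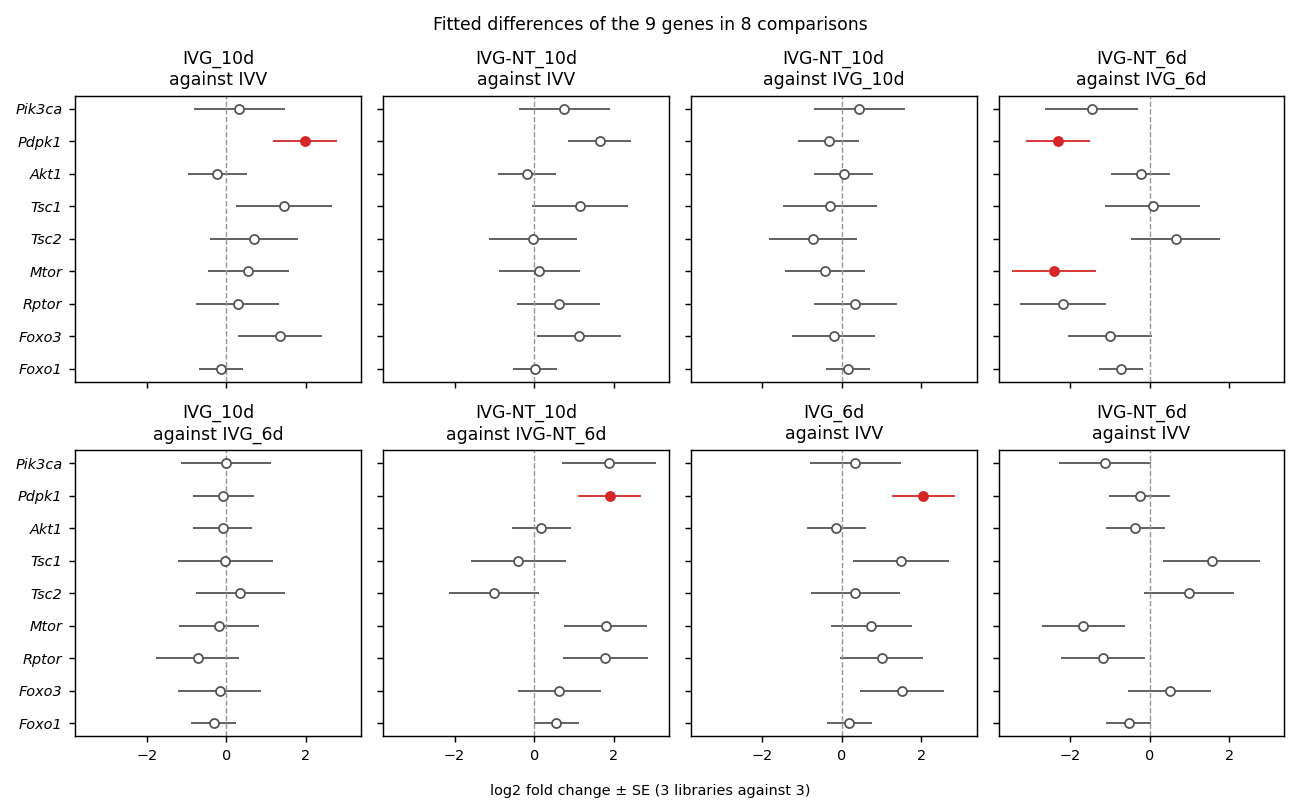
Fitted log2 fold changes (horizontal axis, points with SE bars) of the 9 genes in 8 comparisons of 3 libraries against 3. Red filled points are genes that passed the rule for a call. Pdpk1 is red in 4 panels and Mtor in 1, and no gene has an adjusted p under 0.05.

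A list of 71 other genes of the pathway, from receptors to FOXO targets, was counted beside the 9. All of the 71 passed the filter on low counts, and no adjusted p was under 0.05 in edgeR. Against IVV, IVG day 10 had 1 of the 71 called higher and none lower, where 2.76% of all genes were called. This was Pik3cd, the catalytic subunit p110δ, at 1098 CPM against 260 (log2 fold change 2.08 ± 0.95 SE, adjusted p = 1), with the IVV libraries spread from 13 to 538 CPM. IVG-NT day 10 had 3 called lower and none higher against IVV, where 3.29% of all genes were called. The 3 were Sgk3, a kinase activated by PDK1, Irs2, an adaptor of the insulin receptor, and Rragb, a Rag GTPase that brings mTORC1 to the lysosome. All 3 had 0 counts in the 3 IVG-NT libraries and no more than 45 counts in any IVV library.

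NT-4 at day 10 had 2 of the 71 called lower, where 1.24% of all genes were called. These were Sgk3 and Rragb, again on 0 counts in IVG-NT and at most 38 in any IVG library. Blocked by replicate number, which pairs the libraries of these groups, none of the 71 was called, and DESeq2 called none. At day 6 the count was 5 higher and 3 lower, or 8 of 71, where 11.6% of all genes were called. Among the higher were Sesn2, a leucine sensor that restrains mTORC1, with 194, 141 and 1.34 CPM in IVG-NT and 1.15, 9.88 and 2.03 CPM in IVG (4.68 ± 1.40 SE, adjusted p = 0.381). The others named by P were Irs2, with 377, 13 and 8 counts against 0, 0 and 22, and Tfeb, a lysosomal transcription factor that mTORC1 phosphorylates, with 0, 365 and 6 counts against 0, 8 and 0. Each of these 3 was high in 1 or both of the shallow libraries. Among the lower were Gsk3b, a kinase that AKT inhibits, at 13.6, 1.91 and 11.5 CPM against 56.7, 97.6 and 28.3 (-2.75 ± 0.91 SE, adjusted p = 0.381). It was lower in every IVG-NT library than in any IVG library. Irs1 was also among the lower, with counts in a single IVG library (106).

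Day 10 against day 6 without NT-4 had 4 of the 71 called higher and none lower, where 2.90% of all genes were called. The 3 with the smallest P were Foxo4, Sgk3 and Gab1, an adaptor downstream of receptor tyrosine kinases. Foxo4 held 44, 20 and 4 counts at day 10 and 0 at day 6, and Gab1 151, 173 and 35 counts against 0, 0 and 26. Blocked by replicate number, 1 of the 71 was called. With NT-4 the count was 3 higher and 4 lower at day 10, or 7 of 71, where 12.7% of all genes were called. Irs1, Gab1 and the regulatory subunit gene Pik3r2 were higher, for instance Pik3r2 with 306, 201 and 117 counts at day 10 against 0, 0 and 56 (adjusted p = 0.365). The lower genes with the smallest P were Irs2, Sesn2 and Tfeb (adjusted p = 0.357 each), whose high values at day 6 were those in the shallow libraries.

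Against IVV, IVG day 6 had 1 gene called higher and 3 lower, where 4.59% of all genes were called. The higher gene was Prkaa2, a catalytic subunit of AMPK that opposes mTORC1, at 58.3 CPM against 12.9 (2.18 ± 1 SE, adjusted p = 1). Prkaa2 held 70.3 and 90.9 CPM in the rRNA-rich IVG libraries against 15.6 CPM in that of IVV. In rRNA-poor libraries it held 13.7 CPM in IVG against 13.2 and 9.74 CPM in IVV. The lower genes were Sgk3, Rragb and Gab1. IVG-NT day 6 had 3 higher, Sesn2, Tfeb and Irs2, and 3 lower, Irs1, Pik3r2 and Gab1, where 10.4% of all genes were called. Sesn2 stood at 1.08 to 1.74 CPM in IVV and at 1.34 CPM in the rRNA-poor IVG-NT library, so its log2 fold change of 6.23 ± 1.51 (SE, adjusted p = 0.478) rests on the 2 shallow libraries. DESeq2 gave adjusted p values under 0.05 for 3 of the 71 in the day 6 NT-4 comparison, where 654 of all 21009 genes had them. In IVG-NT day 10 against day 6 it gave them for 3 of the 71 and 715 of all genes. In IVG-NT day 6 against IVV these were 2 of the 71 and 532 of all genes. For the interaction of NT-4 and day they were 3 of the 71 and 165 of all genes. In edgeR 6 of the 71 had an unadjusted P under 0.05 for that interaction, against 6.37% of all genes.

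Of the 71 genes, 4 had all rRNA-rich libraries above all rRNA-poor ones, against 2.88% of all genes tested, and 3 had them below, against 10.3%. Kit, the oocyte receptor for KIT ligand that feeds PI3K, held 543 to 1880 CPM in the rRNA-rich and 59.4 to 115 CPM in the rRNA-poor libraries. The regulatory subunit gene Pik3r1 held 74.3 to 219 against 37.2 to 71.5 CPM, and Gsk3a 27.7 to 81 against 1.91 to 7.64 CPM. Nprl3, a part of the GATOR complex that restrains mTORC1, was the fourth with all rRNA-rich libraries above, and without the 2 shallow libraries there were 20 of 71, against 11.1% of all genes tested. In the other direction stood Rheb, the activator of mTORC1, at 5.22 to 37.1 CPM in rRNA-rich and 54.5 to 172 CPM in rRNA-poor libraries, and Lamtor2 and Lamtor5, which anchor mTORC1 to the lysosome. Lamtor5 held 0 to 150 CPM in rRNA-rich and 305 to 508 CPM in rRNA-poor libraries. These genes are named because their libraries separated by kind, which was seen before they were chosen.

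**Figure D5:**
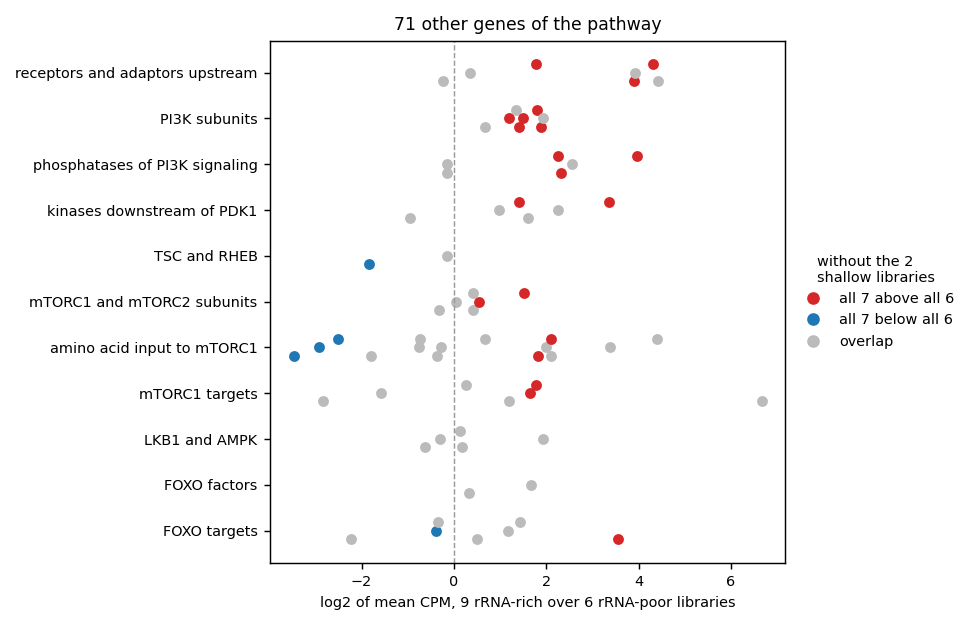
Log2 ratio of mean CPM in 9 rRNA-rich over 6 rRNA-poor libraries for 71 other pathway genes, 1 point a gene, in rows by their role. Red and blue points are genes for which, without the 2 libraries under 10 M counts, all 7 rRNA-rich libraries lay above or below all 6 rRNA-poor ones. Red points are spread over most roles, and blue points are Rheb, 3 Lamtor genes and Sod2.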

How the data were processed

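Oocyte RNA was amplified with SMART-Seq2, primed on poly(A) tails and copied by PCR without molecular identifiers or strand marking, from 6 oocytes per library. The authors aligned reads to mm10 with HISAT2 and deposited unnormalized counts per Ensembl gene for each library. How counts per gene were taken, and the annotation release, are not given in the sources used here. Groups and replicate numbers came from the sample titles, which number IVV 2, 3 and 4. The deposit also carries another numbering of the IVV libraries, which was not used, and the replicate block depends on this choice. The libraries are said to come from replicated experiments, but a shared experiment is not given, so P values measure the spread between libraries.

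Genes were kept by filterByExpr (minimum count 10), scaled by TMM and fitted with group means over all 15 libraries (edgeR 4.0.16, R 4.3.3). CPM in the text are scaled this way, and CPM per kb divide by the union of exons. Adjusted p is Benjamini-Hochberg over 21009 genes. SE is the size of the log2 fold change over the root of F. Alternatives were DESeq2 1.42.0, other scaling, no filter, a replicate block, the kind of library (limit of 5% rRNA) and libraries left out. Tests were tried on simulated counts. Same-numbered libraries deviated together in IVG and IVG-NT at day 10 (r = 0.37, 0.413 and 0.732 over genes) and in IVG at both days (0.23, 0.147 and 0.538). The replicate block covered all 15 libraries by number, IVV and IVG-NT day 6 included, and the main fit was not paired. In the in vitro groups the kind of library follows the replicate number, so these correlations cannot tell a shared experiment from a shared kind. Correlations between libraries of different number were not computed. A series-wide table repeating the counts was not used. Members, lists, the rRNA limit and comparisons were chosen with earlier results of these data known. Up to 3 pathway genes called in each direction were named by P, beside the 2 members with the smallest P in each comparison. A gene of the list that the rule would name is counted but not reported here.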

Additional observations from a re-analysis of the deposited data

How the results depend on the processing

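The alternatives changed mostly whether Pdpk1 and Mtor passed the rule, and with so few members a call of 1 gene more or less counts as a change. Members called in IVG day 10 against IVV fell from 1 to 0 with the replicate block or the kind of library in the fit. In IVG-NT day 10 against IVV they rose from 0 to 1 with only these groups fitted, in rRNA-rich libraries alone and without the 2 shallow libraries, the last an alternative added after seeing the data. For NT-4 at day 6 they went from 2 to 1 with DESeq2 size factors, under DESeq2 and with only these groups fitted, and to 0 without the shallow libraries, where the log2 fold changes were -2.32 (Mtor) and -1.82 (Pdpk1). For IVG-NT day 10 against day 6 they went from 1 to 0 under the same 4 settings and with the replicate block, and to 2 in rRNA-rich libraries alone. In IVG day 6 against IVV they fell from 1 to 0 with the replicate block, and in IVG-NT day 6 against IVV they rose from 0 to 1 with that block and in rRNA-rich libraries alone. Members with an interaction of NT-4 and day rose from 0 to 2 in rRNA-rich libraries alone. Leaving out 1 library at a time gave 0 to 1 members called in IVG day 10 against IVV, IVG-NT day 10 against IVV, IVG-NT day 10 against day 6 and IVG-NT day 6 against IVV, 0 to 3 for NT-4 at day 6, 0 to 2 in IVG day 6 against IVV and 0 to 1 for the interaction. NT-4 at day 10 and IVG day 10 against day 6 had 0 members called under every setting run.

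Of the 71 pathway genes, IVG day 10 against IVV had 1 called, which became 0 with DESeq2 size factors, 3 without the filter, 5 with only these groups fitted, 2 in rRNA-rich libraries alone and 4 without the shallow ones. Under DESeq2 and with the replicate block 1 gene was still called, but lower, so the call of Pik3cd as higher was lost. IVG-NT day 10 against IVV had 3, which became 0 in rRNA-rich libraries alone and 1 without the shallow ones. NT-4 at day 10 had 2, which became 0 under DESeq2, with only these groups fitted, with the replicate block, in rRNA-rich libraries alone and without the shallow ones, and 1 without the filter or without the rRNA gene. NT-4 at day 6 had 8 (5 higher, 3 lower), which became 2 with only these groups fitted and 4 with the replicate block. The count was 13 with the kind in the fit (7 higher, 6 lower) and 17 in rRNA-rich libraries alone (4 higher, 13 lower). In that last setting the IVG-NT libraries are the 2 shallow ones. IVG day 10 against day 6 had 4, which became 0 without the filter or with only these groups fitted and 1 under DESeq2 or with the replicate block. IVG-NT day 10 against day 6 had 7, which became 2 with only these groups fitted or without the shallow libraries and 18 in rRNA-rich libraries alone. IVG day 6 against IVV had 4, which became 2 without the filter or in rRNA-rich libraries alone and 1 with the replicate block. IVG-NT day 6 against IVV had 6, which became 1 with only these groups fitted and 2 without the shallow libraries. Leaving out 1 library gave, in the order of these comparisons, 0 to 5, 1 to 5, 0 to 2, 3 to 16, 0 to 4, 4 to 18, 1 to 6 and 2 to 18 genes. The share of all genes called was taken only in the main fit and under DESeq2. Counts under the other settings are therefore not read as particular to the pathway.

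Directions turned for Foxo3, Tsc1 and Pdpk1. With the replicate block Foxo3 went to -0.96 in IVG day 10, -1.19 in IVG-NT day 10 and -0.80 in IVG day 6 against IVV, and Tsc1 to -1.24 in IVG-NT day 6 against IVV. By the sample titles IVV shares only numbers 2 and 3 with the other groups, and same-numbered libraries deviated oppositely (r = -0.522 to -0.0995). Those same-numbered libraries are also of opposite kind, so r cannot tell whether an experiment was shared. Libraries of IVG-NT day 6 had r = 0.0833, 0.107 and 0.328 with the same-numbered ones of IVG day 6. With those of IVG-NT day 10 r was 0.0803, 0.0663 and 0.26. The replicate block covered all these groups. Fitted with the kind of library, Foxo3 in IVG-NT day 10 against IVV was at -0.02. Tsc1 in IVG-NT day 6 against IVV was -0.09 without replicate 2 of IVG-NT and -1.76 without both shallow libraries, and ranged up to 3.11. Pdpk1 for NT-4 at day 10 was 0.05 without IVG replicate 1 and 0.09 without IVG-NT replicate 3, and ranged down to -0.79. The median of the 9 members turned in IVG day 10 and day 6 and IVG-NT day 10 against IVV with the replicate block (-0.41, -0.21 and -0.58). The cause was not tested. DESeq2 size factors moved the median log2 fold change of all genes from -0.20 to -0.39 in IVG day 10 against IVV, from -0.27 to 0.00 for NT-4 at day 6 and from 0.40 to 0.04 in IVG-NT day 10 against day 6.

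Depth limits the IVG-NT day 6 values most, where Mtor and Rptor rest on 6 and 5 counts in replicate 2. PCR copies are not independent molecules, so counting error is a lower limit. Where 1 library of a group remained, its spread was taken from the other groups.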
